A study of Mus musculus with 8 samples.

Results

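The genes described here are the genes of oxidative phosphorylation, carried in both genomes of the mouse cell and read in single-nucleus RNA sequencing (sn-RNAseq) of the hippocampus. Members were taken by symbol: names starting with mt-, Nduf followed by a, b, c, s or v, Sdha to Sdhd, Uqcr, Cox4 to Cox8 or Atp5, without pseudogenes and antisense transcripts. This gave 105 of the 30211 genes in the count tables, 13 of them encoded by mitochondrial DNA and 92 by nuclear chromosomes. By complex, the mitochondrial genome held 7 genes of complex I, 1 of complex III, 3 of complex IV and 2 of complex V, while the nuclear genome held 36 subunit genes and 8 assembly genes of complex I, 4 genes of complex II, 8 of complex III, 20 of complex IV and 16 of complex V. The study compared mice lacking GSAP, a protein that modulates gamma-secretase, with wild-type mice, with and without a mutant human APP transgene. There were 3 WT and 3 GKO mice, all 7 mo old, and 1 J20;WT and 1 J20;GKO mouse, both 6 mo old, with 1 library per mouse and every mouse labelled C57BL/6 (the study's methods give the substrain C57BL/6N). GKO is a constitutive deletion made by crossing a floxed GSAP allele to a CMV-Cre line, so the gene is altered in all cells and not in a chosen type. J20 mice express human APP carrying the Swedish and the Indiana mutation, driven by the promoter of human PDGFB. With a single J20 mouse per genotype, that pair allows no test.

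Oxidative phosphorylation is carried out by 5 complexes of the inner mitochondrial membrane. Complexes I (NADH dehydrogenase), II (succinate dehydrogenase), III (cytochrome bc1) and IV (cytochrome c oxidase) pass electrons from fuel molecules to oxygen and, apart from complex II, pump protons, and complex V (ATP synthase) uses the proton gradient to make ATP. All but complex II are assembled from subunits of both genomes. The mitochondrial mRNAs are transcribed and translated inside the mitochondrion, outside the nucleus, while mRNAs for the nuclear-encoded subunits are transcribed in the nucleus and translated in the cytosol. In a preparation of nuclei, mitochondrial transcripts are therefore molecules that came along with the nuclei.

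Mitochondrial genes lie close together on the circular genome, and the genes mt-Atp8 and mt-Atp6, both subunits of ATP synthase, share 43 bases on the same strand. The shared stretch lies at chrM:7927-7969 in mm10, and it is shown because reads confined to it cannot be given to either gene. Capitals mark the start codon of mt-Atp6.
mt-Atp8/mt-Atp6 overlap: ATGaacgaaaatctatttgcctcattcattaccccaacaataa
Of the 13 mitochondrial genes, 7 have a near-identical stretch on chromosome 1. For mt-Co3 the copy matches 783 of 783 aligned bases, and for mt-Co1 it matches 486 of 492 bases, which cover 31.8% of the gene. None of these copies is a gene of the count tables, so counts of those 7 genes are uncertain to the extent that reads could map to both places.

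Promoters of the nuclear members are shown because they are where nuclear factors thought to tie both genomes together bind, among them NRF1, GABPA (an ETS factor), YY1 and the estrogen-related receptors. RefSeq promoters (GRCm38.p6, 250 bases before to 50 after each start, both strands searched) were matched for 74 of the 92 nuclear members, giving 79 promoters. The palindromic consensus of NRF1, in capitals in the first and second sequences here, occurred in 7 of the 79 (8.86%), against 0.971% of all 32851 promoters. The ETS letters CCGGAAG occurred in 18 (22.8%, against 8.86%), and the YY1 letters AAGATGGC in 10 (12.7%, against 2.75%). The receptor letters TCAAGGTCA occurred in 2 (2.53%, against 0.423%), and the GC-box letters GGGGCGGGG in 11 (13.9%, against 11.4%). A match of letters is a description of the sequence and not a binding site. The promoters of Atp5k, the e subunit of ATP synthase (chr5:108434350-108434649, minus strand), and Cox6a1, the subunit VIa isoform of most tissues (chr5:115348909-115349208, minus strand), each held the NRF1 consensus and the ETS letters. The promoter of Atp5j, coupling factor 6 of ATP synthase (chr16:84834927-84835226, minus strand), held the YY1 and ETS letters and overlaps the start of Gabpa, which is transcribed the other way. Capitals mark the matched letters, on either strand.
Atp5k: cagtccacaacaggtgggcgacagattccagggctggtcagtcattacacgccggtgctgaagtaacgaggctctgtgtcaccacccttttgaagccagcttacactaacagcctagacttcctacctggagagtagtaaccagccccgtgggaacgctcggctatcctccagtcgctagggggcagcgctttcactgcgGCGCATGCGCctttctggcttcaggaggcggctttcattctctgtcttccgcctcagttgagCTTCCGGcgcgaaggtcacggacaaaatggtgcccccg
Cox6a1: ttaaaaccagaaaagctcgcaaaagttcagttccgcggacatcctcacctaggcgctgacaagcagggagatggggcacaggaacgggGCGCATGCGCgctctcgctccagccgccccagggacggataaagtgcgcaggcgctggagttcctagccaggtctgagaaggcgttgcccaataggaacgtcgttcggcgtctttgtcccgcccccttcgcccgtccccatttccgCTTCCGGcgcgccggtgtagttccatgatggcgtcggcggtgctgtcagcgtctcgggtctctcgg
Atp5j: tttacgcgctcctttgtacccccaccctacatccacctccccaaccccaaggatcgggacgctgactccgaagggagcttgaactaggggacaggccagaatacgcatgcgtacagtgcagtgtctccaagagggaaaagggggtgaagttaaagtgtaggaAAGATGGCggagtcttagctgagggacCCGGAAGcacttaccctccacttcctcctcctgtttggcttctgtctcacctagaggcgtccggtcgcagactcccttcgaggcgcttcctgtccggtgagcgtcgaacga

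The libraries held 33314 barcodes, of which 32041 passed the study's limits of at most 5% mitochondrial UMIs (unique molecular identifiers, counted molecules) and 200 to 7500 genes. The libraries kept 2731 to 5252 nuclei and 21020159 to 43310978 UMIs each. Nuclei were given a type only where 1 list of 8 marker genes stood clearly above the others, which placed 28300 nuclei (88.3%). These were 13611 excitatory neuron, 1525 inhibitory neuron, 2640 astrocyte, 7023 oligodendrocyte, 804 oligodendrocyte progenitor cell (OPC) and 2036 microglia nuclei, and 661 nuclei of 5 rarer types. Of the 8 markers of each list, 7 or 8 were highest in their own type. The same markers set the types, so this is no independent check of the names. No member belongs to a marker list. The J20;WT library stood apart: it had the highest share of barcodes over the mitochondrial limit (4.96%, against 1.11% to 3.30% elsewhere), the lowest share of nuclei given a type (79.7%) and the lowest Malat1 share (6.43% of UMIs). WT_1 and GKO_1 share a file date, the other 4 WT and GKO libraries and J20;GKO share another, and J20;WT has its own. Gsap was at 22.3 to 23.0 CPM (UMIs per 1000000 UMIs) in WT and 19.8 to 22.0 in GKO libraries. Gsap counts cover the whole gene and do not resolve the deleted exons, so these values do not check the labels.

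Mitochondrially encoded transcripts took a larger share of UMIs in glial than in neuronal nuclei. Over the 8 libraries the 13 genes together made up 0.244%, 0.339% and 0.467% (lowest, median and highest) of UMIs in excitatory neurons and 0.278%, 0.336% and 0.728% in inhibitory neurons. The values were 0.757%, 0.895% and 1.36% for astrocytes, 0.648%, 0.886% and 1.68% in oligodendrocytes, 0.540%, 0.668% and 1.19% in OPCs and 0.80%, 1.16% and 1.93% in microglia. In each library both neuronal types lay below all 4 glial types. Compared within libraries, 13 of the 15 pairs of types differed in the same direction in 8 of 8 libraries (exact sign-flip permutation test, two-sided p = 0.0078, the smallest that 8 pairs allow, adjusted over 15 pairs p = 0.00901). By mean share, OPCs (0.747%) lay above both neuronal types and below the other glia, and microglia (1.27%) above all other types. The neighbours that could not be separated were excitatory and inhibitory neurons (difference of -0.0659 ± 0.106 percentage points, SD, n = 8, exact p = 0.117, adjusted p = 0.126) and astrocytes and oligodendrocytes (-0.0635 percentage points, exact p = 0.477, in 4 of 8 libraries each way).

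**Figure D1:**
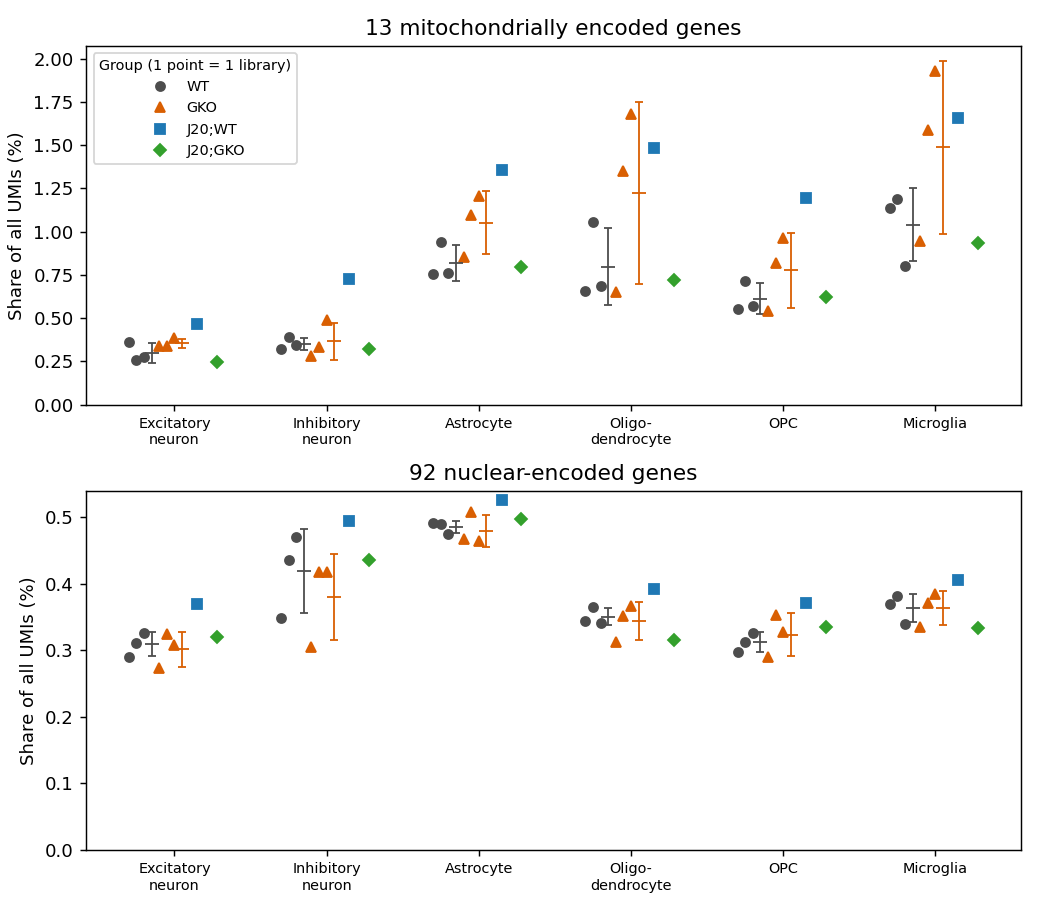
Share of all UMIs (%, vertical axes) taken by the 13 mitochondrially encoded genes (top) and the 92 nuclear-encoded genes (bottom) in 6 types of nuclei (horizontal axes). A point is 1 library, horizontal bars with whiskers are the mean ± SD of 3 WT or 3 GKO mice, and the mitochondrial share is lower in both neuronal types than in every glial type, while the nuclear-encoded share is highest in astrocytes.

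Counted per nucleus instead of per UMI, the order of the types was another. A mean nucleus carried 40.8 mitochondrial UMIs (median of 8 libraries) in excitatory neurons, 45.1 in inhibitory neurons, 39.0 in astrocytes, 30.9 in OPCs, 24.3 in microglia and 21.6 in oligodendrocytes. Both neuronal types lay above oligodendrocytes and microglia in 8 of 8 libraries, and excitatory neurons lay above astrocytes in 3 of 8. The total differed far more between types, at a median of 11878 UMIs per nucleus in excitatory neurons, 12415 in inhibitory neurons, 4263 in astrocytes, 4407 in OPCs, 2345 in oligodendrocytes and 1978 in microglia. Within excitatory neurons, too, the mitochondrial share was lower in deeper nuclei: it was 0.568% in the shallowest tercile and 0.243% in the deepest tercile of each library's nuclei on average, and lower in the deepest tercile in 8 of 8 libraries. The same held in 8 of 8 libraries for inhibitory neurons, oligodendrocytes and OPCs, in 7 of 8 for microglia and in 3 of 8 for astrocytes. The terciles of excitatory neurons mix the groups described below, of which dentate granule nuclei were shallower and had a higher share than CA1 and CA3 nuclei. The part of that mix was not tested. With each nucleus thinned to 1000 UMIs, which left out 1.18% to 2.54% of nuclei per type, mean shares were 0.411% in excitatory neurons, 0.439% in inhibitory neurons, 0.978% in astrocytes, 1.09% in oligodendrocytes, 0.766% in OPCs and 1.29% in microglia. A random draw keeps the expected share of each nucleus. Thinning thus gives every nucleus the same weight and cannot take out a link between depth and share. The part that depth and the preparation of nuclei have in the difference in share between neurons and glia was not tested.

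**Figure D2:**
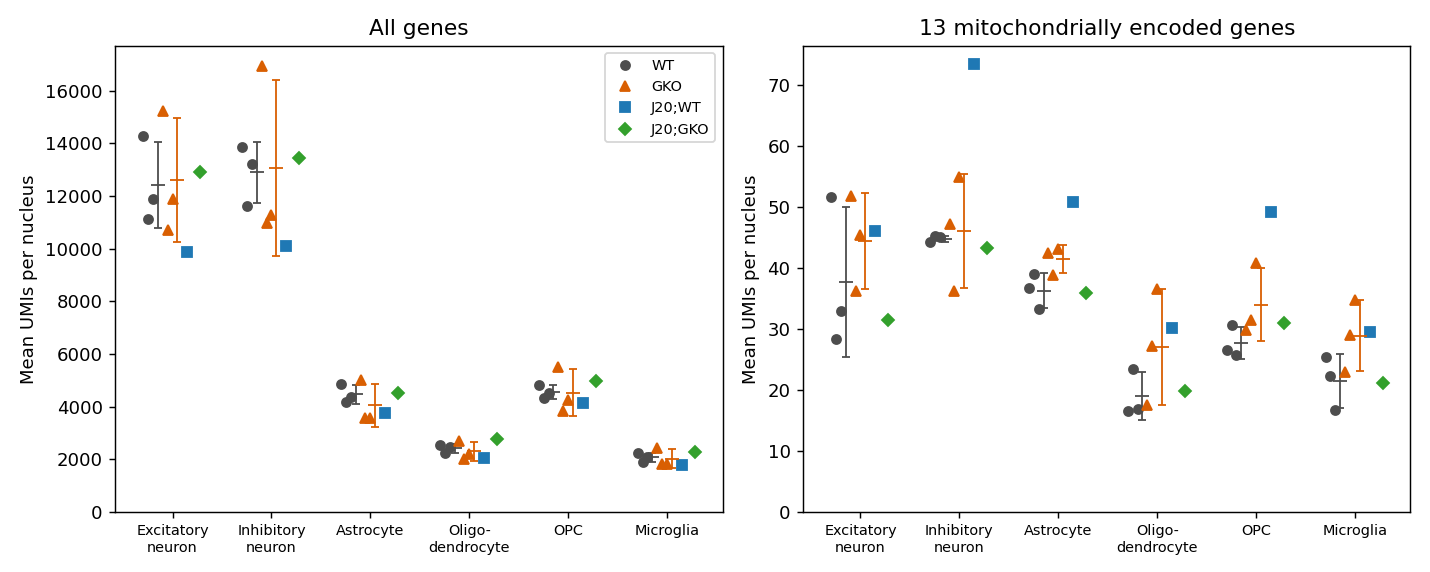
Mean UMIs per nucleus for all genes (left) and for the 13 mitochondrially encoded genes (right) in the 6 types, with 1 point per library and the mean ± SD of 3 WT or 3 GKO mice. Totals span medians of 1978 to 12415 UMIs between types, while mitochondrial UMIs span 21.6 to 45.1.

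The mitochondrial genes kept nearly the same proportions to each other in all 6 types. mt-Co3, a core subunit of cytochrome c oxidase, made up 19.0% to 19.7% of mitochondrial UMIs (range of the type means). mt-Atp6, the proton channel subunit of ATP synthase, followed at a mean of 18.6%, and the oxidase subunits mt-Co1 and mt-Co2 took 15.9% and 14.0%. mt-Cytb, the mitochondrial subunit of complex III, took 7.67%. Of the complex I subunits, mt-Nd4 took 7.28%, mt-Nd2 7.12%, mt-Nd1 4.78%, mt-Nd3 3.17%, mt-Nd5 1.03% and mt-Nd4l 0.608%. mt-Atp8 took 0.376%, and mt-Nd6, the complex I gene on the other strand, took 0.0904%. These are shares of counted molecules, which are not corrected for gene length. By complex, the 3 mitochondrial oxidase genes held a median of 0.167% of all UMIs in excitatory neurons and 0.443% in astrocytes, and the 7 complex I genes 0.0827% and 0.209%.

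Gene by gene, each type was compared with the mean of the other 5 over the summed counts of the 8 libraries (edgeR quasi-likelihood test with libraries as blocks, 13779 genes, a call needing a log2 fold change past 1 in size with a Benjamini-Hochberg adjusted p under 0.05). All 13 mitochondrial genes were lower in excitatory neurons by this rule, with log2 fold changes from -1.22 to -1.07, where 13% of all genes tested were called lower. In inhibitory neurons the range was -1.11 to -0.85, and 6 of 13 passed (mt-Nd3, mt-Nd4, mt-Nd6, mt-Co1, mt-Atp6 and mt-Atp8), against 12.1% of all genes. In astrocytes (0.46 to 0.69), oligodendrocytes (0.68 to 0.80) and microglia (0.59 to 0.91) all 13 lay above 0 with adjusted p under 0.05 (as did 32.2%, 34.7% and 31.4% of all genes), and none reached a log2 fold change of 1. In OPCs the 13 genes ran from -0.16 to 0.42 and none had an adjusted p under 0.05. mt-Co3 may stand for the set. It was at 474, 653 and 963 CPM (lowest, median and highest of 8 libraries) in excitatory neurons and 1514, 2193 and 3767 in microglia, with no overlap between these types. Its log2 fold changes were -1.15 (SE 0.0881) and 0.73 (SE 0.0781).

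By share of UMIs, nuclear-encoded members followed another order of types, with astrocytes at the top. Together they made up 0.464%, 0.490% and 0.53% of UMIs (lowest, median and highest library) in astrocytes, 0.305%, 0.427% and 0.495% in inhibitory neurons and 0.273%, 0.315% and 0.369% in excitatory neurons. They made up 0.333%, 0.370% and 0.406% in microglia, 0.312%, 0.348% and 0.392% in oligodendrocytes and 0.290%, 0.327% and 0.371% in OPCs. Astrocytes lay above each other type, and inhibitory above excitatory neurons, in 8 of 8 libraries (exact sign-flip test, p = 0.0078 for each). All 15 pairs had an adjusted p under 0.05 in the exact test. Of these pairs, 7 lost the threshold under at least 1 alternative, and 2 of the 7 also turned direction (excitatory neurons minus OPCs averaged over nuclei, and oligodendrocytes minus microglia with Malat1 left out). Several differences were small: inhibitory neurons lay above microglia in 6 of 8 libraries (adjusted p = 0.0469), and OPCs above excitatory neurons by 0.0117 percentage points (adjusted p = 0.0130). Excitatory and inhibitory neurons thus could not be told apart in mitochondrially encoded share and differed in nuclear-encoded share, 0.315% against 0.416% on average. For comparison, the 84 cytosolic ribosomal protein genes were ordered otherwise, at a pooled 0.195% of UMIs in excitatory neurons, 0.214% in inhibitory neurons, 0.270% in astrocytes and 0.410% in microglia. Per nucleus, nuclear-encoded members had medians of 50.3 UMIs in inhibitory neurons, 37.6 in excitatory neurons and 20.5 in astrocytes. The medians were 14.5 in OPCs, 8.27 in oligodendrocytes and 7.20 in microglia. Their share was higher in the shallowest than in the deepest tercile, in 7 of 8 libraries for inhibitory neurons and 8 of 8 for the other types. The part of depth in the order of types was not tested.

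In astrocytes, most nuclear-encoded subunit genes of each complex lay above the mean of the other types. In all, 35 of 35 tested complex I subunit genes, 4 of 4 complex II, 8 of 8 complex III, 11 of 12 complex IV and 15 of 16 complex V genes lay above 0, and of these 27, 4, 8, 11 and 11 had an adjusted p under 0.05 in the edgeR quasi-likelihood test, where 32.2% of all genes were higher at that level. The 83 nuclear members tested had a median log2 fold change of 0.41 in astrocytes, where the median of all genes was -0.06. Astrocyte values of Cox8a, a small subunit of the oxidase, were 170, 198 and 227 CPM (log2 fold change 0.71, SE 0.0574), against 80.9, 100.2 and 111 in excitatory neurons (-0.51, SE 0.0555). Sdha, the flavoprotein of complex II, was at 114, 145 and 154 in astrocytes (0.61, SE 0.0594). Of the assembly genes of complex I, 4 of 8 lay above 0 in astrocytes, 6 of 8 in each neuronal type, and 2 of 8 in oligodendrocytes.

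Inhibitory neurons had a median of 0.16 over the 83 nuclear members, excitatory neurons -0.25, oligodendrocytes 0.16, OPCs -0.31 and microglia -0.17, where the medians of all genes were 0.01, -0.02, -0.04, -0.06 and -0.16. In inhibitory neurons 36 nuclear members were higher and 12 lower at an adjusted p under 0.05 (37.4% and 33.8% of all genes), and in excitatory neurons 9 were higher and 52 lower (38.8% and 38.3% of all genes). The counts were 38 and 9 in oligodendrocytes (34.7% and 37.6%), 3 and 39 in OPCs (25.7% and 24.5%) and 2 and 27 in microglia (31.4% and 40.7%). Cox7b, another small oxidase subunit, was at 104, 163 and 177 CPM in inhibitory neurons (log2 fold change 0.92, SE 0.0493) and at 76.3, 88.4 and 97.3 in excitatory neurons (0.07, SE 0.0478), without overlap. In OPCs 12 of 16 complex V genes were lower at that threshold, against 24.5% of all genes, and none was higher.

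Few nuclear members passed the larger threshold of a log2 fold change beyond 1. The counts of members called higher and lower, both genomes together, were 0 and 14 of 96 in excitatory neurons (17.6% and 13% of all genes), 1 and 7 in inhibitory neurons (16.7% and 12.1%), 3 and 0 in astrocytes (15.5% and 15.2%), 1 and 1 in oligodendrocytes (12.1% and 21%), 1 and 0 in OPCs (13.5% and 9.49%) and 0 and 4 in microglia (15.9% and 26.2%). The lower share in excitatory neurons was near that of all genes and was made up of the 13 mitochondrial genes and 1 nuclear gene. The nuclear genes called were Cox6b2, Ndufc2, Atp5o, Ndufaf5 and Ndufaf6.

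Cox6b2, an isoform of oxidase subunit VIb best known from testis, ran over the widest range of log2 fold changes of the 96 members tested. In astrocytes it was at 25.9, 46.0 and 55.6 CPM in WT mice and 23.2, 40.4 and 33 in GKO mice, with 27.9 in J20;WT and 24.9 in J20;GKO. In excitatory neurons the 8 values lay between 0.262 and 0.902, all below every astrocyte value. The log2 fold changes were 3.49 in astrocytes (SE 0.163), 2.16 in oligodendrocytes (SE 0.180), 1.38 in OPCs (SE 0.315), -1.76 in microglia (SE 0.468), -1.87 in inhibitory neurons (SE 0.306) and -3.41 in excitatory neurons (SE 0.301), each called by the edgeR quasi-likelihood test.

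Ndufc2, an accessory subunit of complex I, was at 264, 331 and 281 CPM in WT astrocytes, 275, 388 and 231 in GKO astrocytes, 409 in J20;WT and 324 in J20;GKO, while no library of any of the other 5 types exceeded 177. Its log2 fold change was 2.12 in astrocytes (SE 0.0780) and -1.01 in microglia (SE 0.127), the latter just past the threshold. Thrsp, a gene of lipid synthesis that ends 5135 bases beyond Ndufc2 on the facing strand (Ndufc2 at chr7:97400003-97407802), had a log2 fold change of 4.09 in astrocytes but 0.67 in microglia and -1.42 in OPCs, where Ndufc2 had 0.01.

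Atp5o, the subunit of ATP synthase that confers sensitivity to oligomycin, was at 516, 479 and 417 CPM in WT astrocytes, 443, 422 and 549 in GKO astrocytes, 362 in J20;WT and 606 in J20;GKO. In microglia its 8 values ran from 66.5 to 120. The log2 fold changes were 1.88 (SE 0.0591) and -1.43 (SE 0.0901). The counted gene lies at chr16:91925214-91931687 (minus strand, GENCODE release M21). A second annotated gene of the same symbol, which is not in the count tables, overlaps it by 1769 bases on the same strand. Gm15976, an antisense gene of the count tables, overlaps it by 3422 bases on the other strand. The part of these overlaps in the counts was not tested.

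The other genes called were assembly factors of complex I. Ndufaf5 was at 23.1, 28.5 and 32.5 CPM in inhibitory neurons (log2 fold change 1.05, SE 0.0995) and 3.70, 9.29 and 13.6 in microglia (-1.18, SE 0.201), with no overlap. Ndufaf6 was at 7.55, 12.3 and 18.9 in oligodendrocytes (-1.19, SE 0.115), and the lowest inhibitory neuron value was 34.7.

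**Figure D3:**
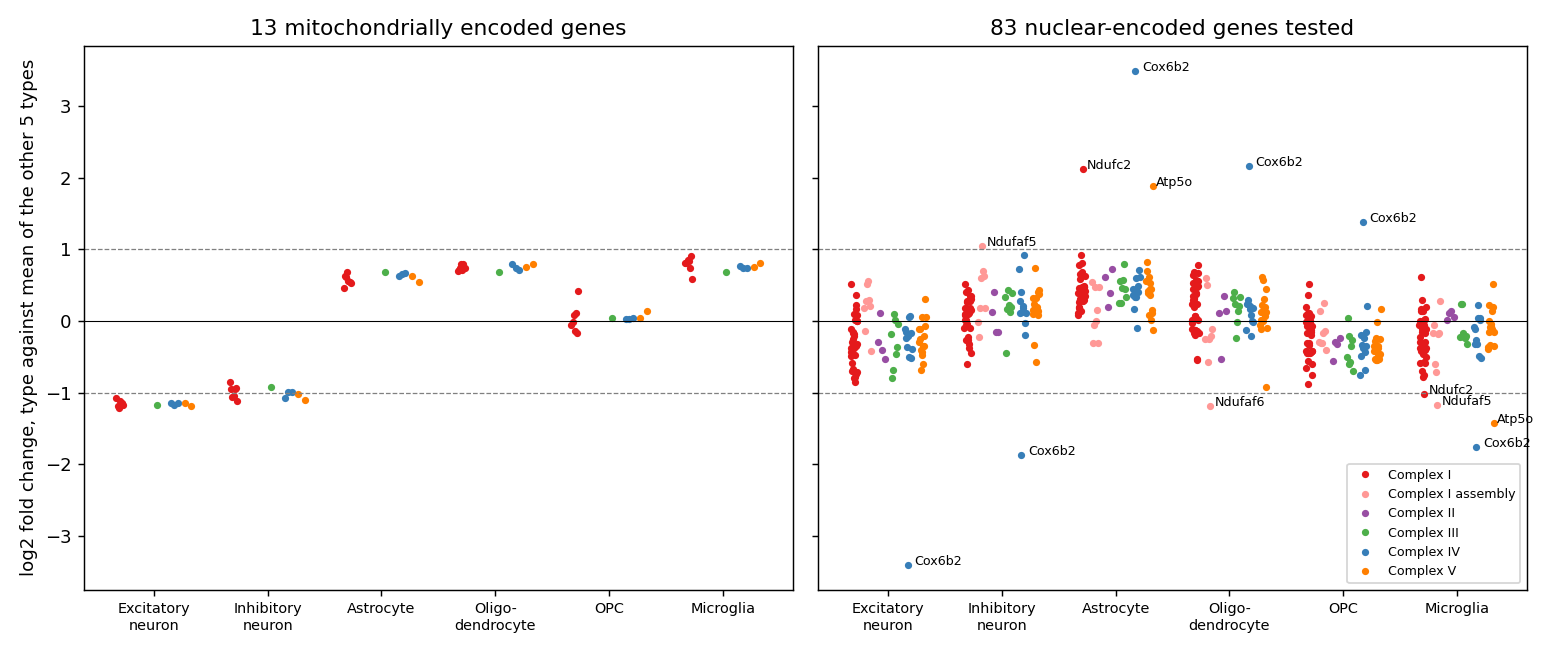
Log2 fold change of each tested member, each type against the mean of the other 5 types, for mitochondrially encoded (left) and nuclear-encoded genes (right), coloured by complex. Dashed lines mark log2 fold changes of 1 and -1, and Cox6b2 lies outside both lines in opposite directions in neurons (-3.41 and -1.87) and astrocytes (3.49).

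Members that come as isoforms were read in the rarer types too, as UMIs pooled over libraries with a 95% exact Poisson interval, which covers counting error only. Ndufa4l2, a relative of the oxidase subunit gene Ndufa4 known to be induced by low oxygen, had 75 UMIs in the 110 mural cell nuclei (401 CPM, 315 to 503, present in 8 of 8 libraries) and 32 UMIs in the 13611 excitatory neuron nuclei (0.194 CPM). Cox4i2, the low-oxygen isoform of subunit IV, had 39 UMIs in mural cells (209 CPM, 148 to 285, in 5 of 8 libraries) and 0.638 CPM in excitatory neurons. For Ndufa4l2, endothelial cells had 1 UMI (interval 0.328 to 72.2 CPM), and OPCs and microglia had none, which allows up to 0.841 and 0.721 CPM.

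Cox6a2, the isoform of subunit VIa known from heart and skeletal muscle, was read mainly in interneurons. It had 190 UMIs in inhibitory neurons (10.0 CPM) and 39 in excitatory neurons (0.237 CPM). Within inhibitory neurons it was at 30.8 CPM (24.5 to 38.2) in the 172 nuclei with Pvalb interneuron markers and 6.64 (5.44 to 8.01) in the remaining 1353. Cox6a2 (chr7:128205435-128206387, minus strand) lies wholly inside Itgad on the other strand, and Itgad had 668 UMIs in oligodendrocytes, unevenly over libraries (3.84, 11 and 115 CPM), where Cox6a2 had 22. Against the other types, Itgad had a log2 fold change of 5.59 in oligodendrocytes (SE 0.420) and 2.73 in inhibitory neurons (SE 0.727). In excitatory neurons, astrocytes, OPCs and microglia it lay below 0, with SEs of 3.23 to 15.3. The part of this overlap in the Cox6a2 counts was not tested. Cox6a1, the common counterpart of Cox6a2, differed little between types, at 73.0 CPM in excitatory neurons, 94.6 in inhibitory neurons, 94.7 in astrocytes and 95.6 in microglia.

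Cox6b2 was also read in choroid plexus epithelium (60.8 CPM, 45.8 to 79.1), fibroblasts (52.4) and mural cells (80.2), while Cox6b1, the common subunit VIb, lay between 24.6 CPM in excitatory neurons and 64.8 in endothelial cells. Cox7b2, best known from testis, was at 3.77 CPM in excitatory and 6.12 CPM in inhibitory neurons, at 5.57 CPM in astrocytes, with 8 UMIs in oligodendrocytes. It had 0 UMIs in microglia, which allows a level of up to 0.721 CPM. Cox8b, an isoform of muscle, had 14 UMIs in choroid plexus epithelium (15.5 CPM) and 0.140 CPM in excitatory neurons. Cox7a1, another muscle isoform, reached 7.74 CPM in choroid plexus epithelium with 7 UMIs, and Cox8c had 2 UMIs in all. Of the 3 genes for the c subunit of the ATP synthase rotor, Atp5g1 was at 59.4 CPM in inhibitory and 37.8 in excitatory neurons, Atp5g2 at 27.5 and 28.2, and Atp5g3 at 29.3 and 17.4.

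**Figure D4:**
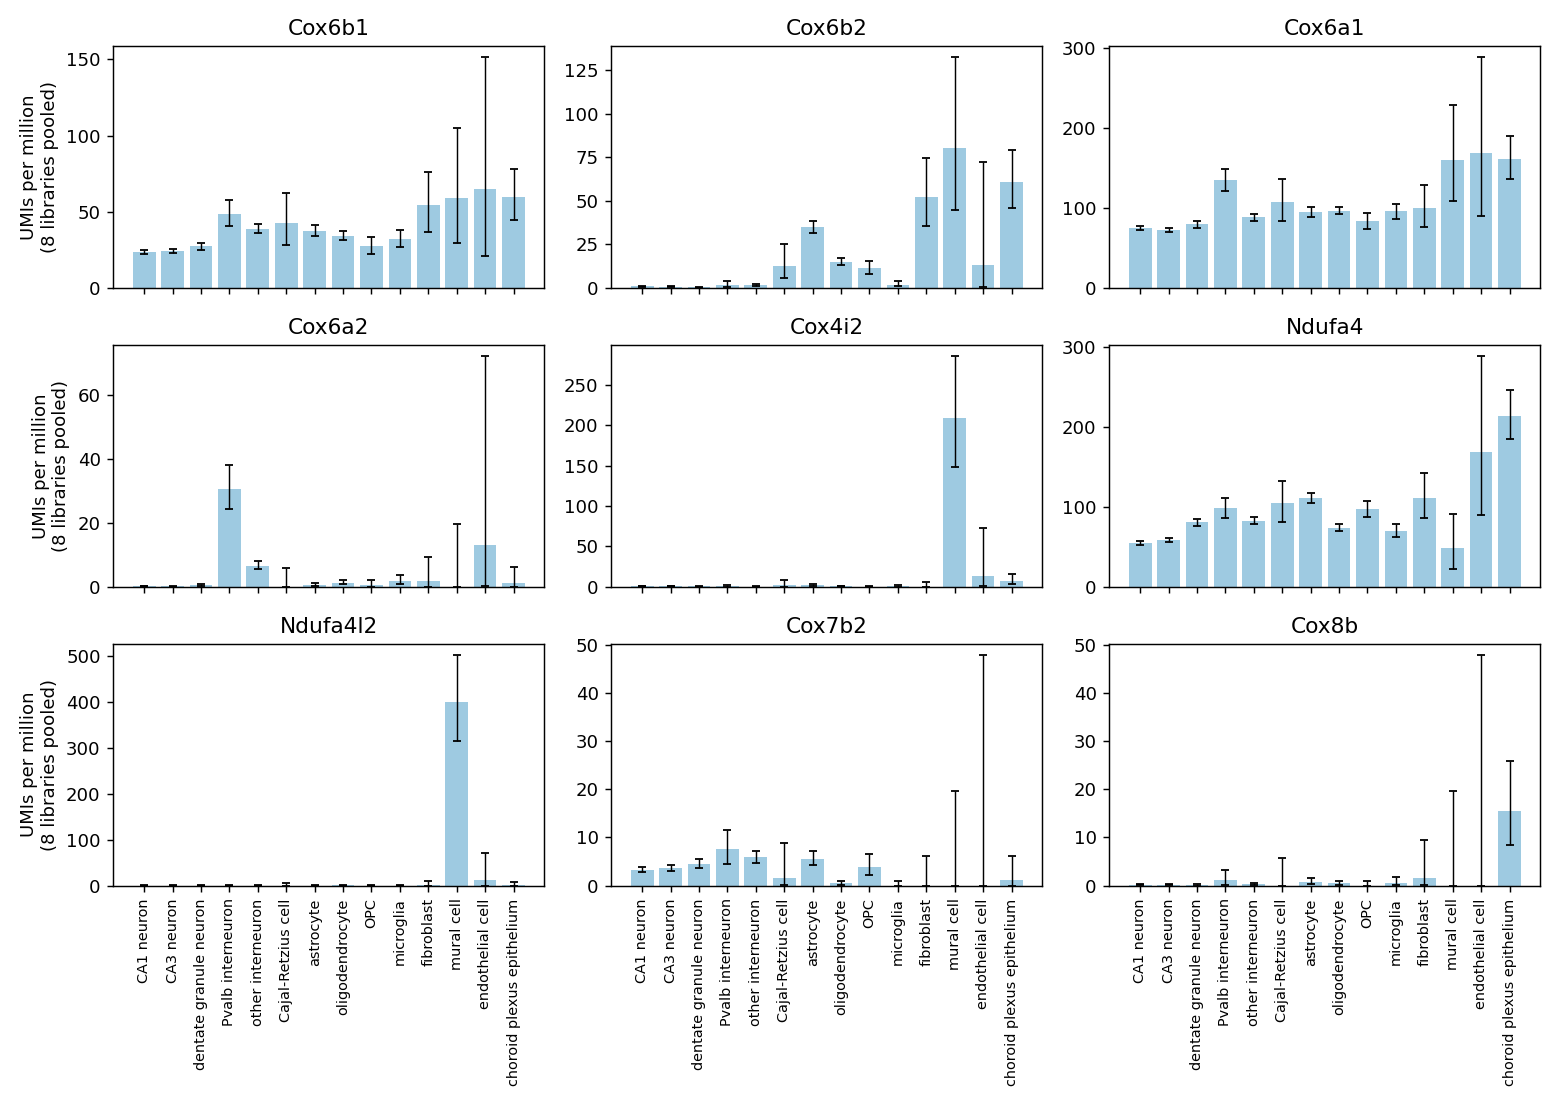
CPM pooled over 8 libraries (vertical axes, linear, each panel with its own scale) for 9 isoform genes across types of nuclei. Bars start at 0 and whiskers are 95% exact Poisson intervals. Ndufa4l2 (401 CPM) and Cox4i2 (209 CPM) stand in mural cells, and Cox6a2 in Pvalb interneurons (30.8 CPM).

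No UMI was counted for Cox4i1, the main isoform of subunit IV, or for Ndufa13, a complex I subunit, in any nucleus given a type. Both lie wholly inside another annotated gene on the same strand: Cox4i1 (chr8:120668222-120674207) inside Gm20388 and Ndufa13 (chr8:69894180-69902558) inside Yjefn3. Gm20388 had a median of 1438 CPM in excitatory neurons. The zeros are therefore no measure of these genes. In all, 36 members overlap another gene of the count tables, 10 of them on the same strand. Overlaps with annotated genes outside the count tables are not in these numbers.

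Excitatory neuron nuclei were gated as dentate granule (2455), CA1 (3424) or CA3 (2357), and the rest of the 13611 were in none of these groups. Of these groups, nuclei with dentate granule markers had the highest shares of both genomes' members. The mitochondrial share was 1.03%, 0.345% and 0.410% in WT mice and 0.940%, 0.485% and 0.530% in GKO mice, with 0.576% in J20;WT and 0.280% in J20;GKO. WT_1 and GKO_1, of the same file date, lay above the other 6 libraries in this pooled share. The median nucleus of those libraries did not stand apart, at 0.462% in WT_1 and 0.486% in GKO_1, where the other 6 libraries had medians of 0.226% to 0.525%. In CA1 nuclei the share ran from 0.193% to 0.430% and in CA3 nuclei from 0.185% to 0.396%. Dentate granule nuclei exceeded CA1 nuclei by 0.297 and CA3 nuclei by 0.323 percentage points on average, in 8 of 8 libraries (exact sign-flip test, p = 0.0078, adjusted over 3 pairs p = 0.0117), and the nuclear-encoded share exceeded those by 0.0343 and 0.0356. Without WT_1 and GKO_1, an alternative chosen after seeing the data, the differences in mitochondrial share were 0.137 and 0.177 percentage points (exact adjusted p = 0.03125). CA1 and CA3 differed by 0.0253 percentage points in mitochondrial share (exact p = 0.0625). Dentate granule nuclei were also shallower, at a median over libraries of 7731 UMIs per nucleus, against 12363 in CA1 and 15704 in CA3. Within inhibitory neurons, Pvalb interneuron nuclei had nuclear-encoded shares of 0.411% to 0.569% and the remaining interneurons 0.292% to 0.482%, while their mitochondrial shares were 0.180% to 0.614% and 0.291% to 0.747%.

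The enzymes that feed the respiratory chain were read from 17 genes of pyruvate dehydrogenase and the tricarboxylic acid cycle. In astrocytes 5 of 17 were called higher (15.5% of all genes), among them Cs, citrate synthase (log2 fold change 1.51, SE 0.0590), Suclg1 (1.43), Suclg2 (1.37) and Pdha1 (1.09). Suclg2, the GTP-forming subunit of succinyl-CoA ligase, was at 86.9, 104.9 and 170 CPM in microglia (log2 fold change 3.38) and 0.603, 2.03 and 4.4 in oligodendrocytes (-3.15). It was also called lower in both neuronal types and higher in OPCs. Idh3a, of isocitrate dehydrogenase, was called higher in inhibitory neurons (1.10) and lower in microglia (-1.22). Of all 13779 genes, 2430 were called higher and 1786 lower in excitatory neurons, 2295 and 1666 in inhibitory neurons, and 2142 and 2099 in astrocytes. The counts were 1664 and 2897 in oligodendrocytes, 1860 and 1307 in OPCs and 2197 and 3611 in microglia.

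Of 33 tested assembly factors outside the naming rule, Ttc19, of complex III, was called higher in excitatory (1.11) and inhibitory neurons (1.14) and lower in microglia (-1.35). Lyrm7 was called higher in excitatory neurons (1.04) and lower in microglia (-1.38), Cox10 higher in astrocytes (1.31), Nubpl higher in microglia (1.13) and Foxred1 lower in OPCs (-1.03). Among 16 tested genes of mitochondrial transcription and RNA, Polg, the mitochondrial DNA polymerase, was called higher in OPCs (2.16) and lower in oligodendrocytes (-1.35). Lrpprc, which stabilises mitochondrial mRNAs, was called lower in OPCs (-1.20), Polg2 lower in inhibitory neurons (-1.18) and Tfb1m higher in oligodendrocytes (1.06). For both lists the counts over all genes are those given above, 1307 to 3611 of 13779 per type and direction.

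Among 9 regulators of mitochondrial genes, calls ran in both directions, where 1307 to 3611 of all 13779 genes were called per type and direction. Ppargc1a, the coactivator PGC-1alpha, was at 155, 170 and 199 CPM in astrocytes (log2 fold change 2.90), and it was also called higher in inhibitory (1.68) and excitatory neurons (1.19) and lower in oligodendrocytes (-3.17) and microglia (-3.33). Esrrg, a nuclear receptor that works with it, was at 305, 345 and 401 in inhibitory neurons (3.44) and was called higher in excitatory neurons (1.85) and lower in oligodendrocytes (-3.37) and microglia (-2.01). Ppargc1b was called higher in both neuronal types (2.45 and 2.42) and lower in astrocytes (-1.81) and oligodendrocytes (-2.16). Esrra was lower in oligodendrocytes (-1.08) and Gabpb1 higher in microglia (1.04). Of the 77 ribosomal protein genes tested, Rpl26 was called higher in oligodendrocytes (1.11) and Rps9, Rpl10 and Rps29 in microglia (1.11 to 1.29). Their medians were -0.43 in excitatory neurons and 0.42 in both oligodendrocytes and microglia. Of all 13779 genes, 1664 were called higher in oligodendrocytes and 2197 in microglia.

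The effect of GSAP deletion was asked of 3 GKO against 3 WT mice. The mitochondrial share of excitatory neurons was 0.362%, 0.255% and 0.278% for the WT mice and 0.341%, 0.338% and 0.382% for the GKO mice, and 0.319%, 0.389% and 0.341% against 0.278%, 0.330% and 0.487% in inhibitory neurons. It was 0.757%, 0.938% and 0.762% against 0.851%, 1.10% and 1.21% in astrocytes, and 0.655%, 1.05% and 0.686% against 0.648%, 1.35% and 1.68% in oligodendrocytes. It was 0.551%, 0.713% and 0.571% against 0.540%, 0.821% and 0.966% in OPCs, and 1.14%, 1.19% and 0.80% against 0.946%, 1.58% and 1.93% in microglia. GKO means lay above WT means in all 6 types, by 0.0552, 0.0153, 0.232, 0.428, 0.164 and 0.446 percentage points in that order, but the groups overlapped in each. The exact permutation p-values were 0.3, 0.9, 0.2, 0.4, 0.4 and 0.3 (two-sided, 0.1 being the smallest possible with 3 against 3), and 0.48 to 0.9 after adjustment over types.

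Within file dates the direction was not shared. GKO_1 minus WT_1 was -0.0216, -0.0407, 0.0946, -0.00713, -0.0112 and -0.189 percentage points, in the same order of types, while the mean of GKO_2 and GKO_3 minus that of WT_2 and WT_3 was 0.0936, 0.0432, 0.301, 0.645, 0.251 and 0.764. Astrocytes were the type with a difference above 0 in both. The nuclear-encoded share differed by -0.00743, -0.0385, -0.00540, -0.00664, 0.0114 and 4.95e-05 percentage points (exact permutation p of 0.5 to 1, unpaired). GKO_1 minus WT_1 was -0.0172, -0.0432, -0.0233, -0.0319, -0.00705 and -0.0344 for this share, and the difference of the second date was -0.00255, -0.0361, 0.00353, 0.00597, 0.0206 and 0.0173. In inhibitory neurons GKO was thus lower at both dates and in 3 of 3 same-numbered pairs (exact sign-flip p = 0.25, the smallest that 3 pairs allow).

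No member, and no other gene, was called between GKO and WT in any of the 6 types by the edgeR quasi-likelihood test (log2 fold change past 0.3 in size and adjusted p under 0.05, 0% of the 7408 to 17721 genes tested). At an unadjusted p under 0.05 there were 2 of 99 members in excitatory neurons, 0 of 96 in inhibitory neurons, 8 of 96 in astrocytes, 0 of 96 in oligodendrocytes, 7 of 64 in OPCs and 5 of 81 in microglia, where 1.29%, 1.44%, 1.99%, 1.38%, 2.59% and 2.61% of all genes passed. DESeq2 called 0 members and had 1, 0, 5, 7, 1 and 6 at that unadjusted level, where it had 0.722%, 0.538%, 0.467%, 0.312%, 0.391% and 0.634% of all genes.

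The fitted changes of the mitochondrial genes lay above 0 in 13 of 13 genes in excitatory neurons (median log2 fold change 0.24), 10 of 12 in inhibitory neurons (0.10), 13 of 13 in astrocytes (0.36) and oligodendrocytes (0.62), and 12 of 12 in OPCs (0.36) and microglia (0.52). The nuclear medians were -0.02, -0.11, -0.04, -0.03, 0.04 and -0.02, and the medians of all genes lay within 0.01 of 0. The 13 genes share their libraries and their carriage into the nuclei, so these counts are not independent. All GKO values lay above all WT values for 5 of 13 mitochondrial genes in astrocytes (3.44% of all genes tested), 2 of 12 in OPCs (3.6%), 1 of 13 in excitatory neurons (1.38%), 1 of 12 in microglia (4.03%) and 0 in inhibitory neurons (2.01%) and oligodendrocytes (2.69%). Of the 52 to 86 nuclear members tested per type, 0 to 3 lay wholly above and 1 to 6 wholly below the WT values, where 3.47% to 4.1% of all genes lay wholly below. The member with the smallest p was mt-Nd5 in OPCs, at 45.5, 48.4 and 38.2 CPM in the WT mice against 70.3, 104.6 and 103 in the GKO mice (log2 fold change 1.10, SE 0.247, unadjusted p = 1.0e-04, adjusted p = 0.744), where J20;WT had 99.2 and J20;GKO 48.0. The WT and GKO values did not overlap, and the J20 pair went the other way. With the replicate number as a block, mt-Nd5 (1.10, adjusted p = 0.0249), mt-Co1 (0.40, adjusted p = 0.0324) and mt-Atp6 (0.37, adjusted p = 0.0491) were called in OPCs in the edgeR test, and with the file date as a term mt-Nd5 was (1.09, adjusted p = 0.0394). These are 3 of the 8 genes called with the block and 1 of the 2 called with the date term, or 0.108% and 0.027% of the 7408 genes tested in OPCs.

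In astrocytes the values of mt-Nd6 were 4.56, 6.48 and 5.65 CPM for WT against 11.6, 12.8 and 10.1 for GKO, without overlap (log2 fold change 1.04, SE 0.330, edgeR adjusted p = 1.00), and mt-Nd4l at 47.7, 56.6 and 34.9 against 68.1, 66.6 and 75.0 (0.57, SE 0.184). mt-Nd4, in astrocytes, had a log2 fold change of 0.41. In microglia mt-Nd4l was at 72.7, 61.3 and 35.6 against 81.0, 99.2 and 120 (0.77, SE 0.257). Uqcr10, a small subunit of complex III, was at 28.2, 27.8 and 25.4 against 37.4, 36.3 and 55.5 in microglia (0.65, SE 0.293). Ndufa4 in neurons was at 60.6, 56.7 and 70.0 against 50, 59.1 and 45.9 in excitatory nuclei (-0.25) and 59.2, 99.7 and 125 against 54.4, 73.4 and 65.4 in inhibitory nuclei (-0.50), overlapping in both. None of these passed the adjusted test. The 3 members with the smallest p in oligodendrocytes were mt-Nd4l, mt-Nd5 and mt-Atp8 (0.79, 0.79 and 0.47). In the other types they also included mt-Co1 (0.30) and mt-Nd6 (0.46) in excitatory neurons, mt-Atp8 (0.57) and Ndufs7 (-0.37) in inhibitory neurons, mt-Atp8 (0.83) and Ndufv2 (0.73) in OPCs and mt-Nd5 (0.44) in microglia. No gene of the 4 other mitochondrial lists, and no ribosomal protein gene, was called in any type.

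**Figure D5:**
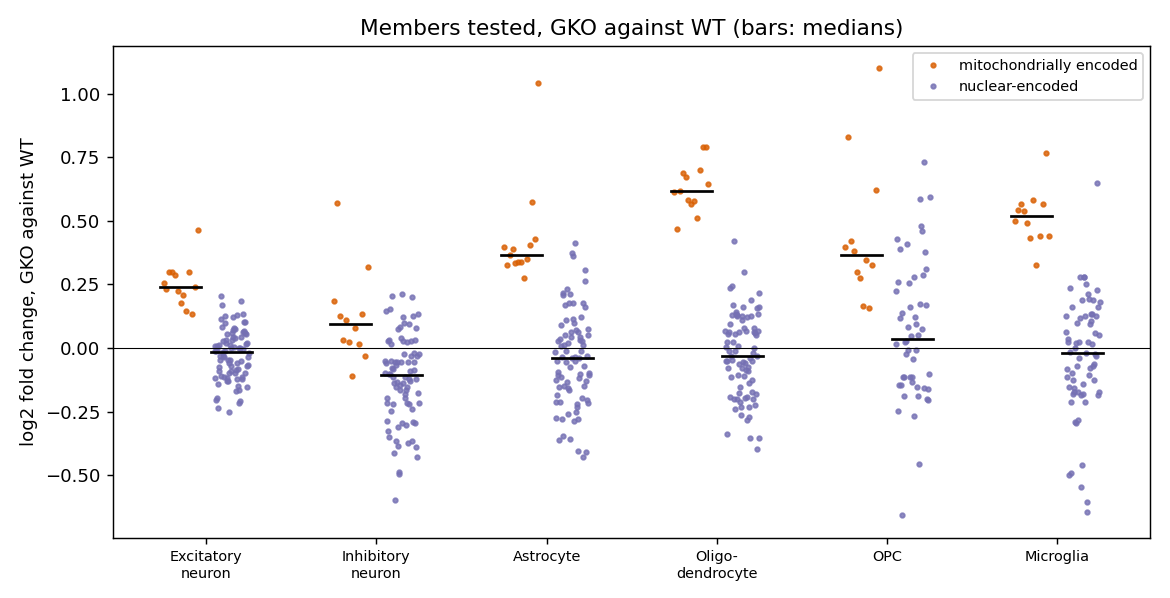
Fitted log2 fold change, GKO against WT (3 mice each), of each member tested in 6 types, with mitochondrially encoded and nuclear-encoded genes side by side and black bars at the medians. Mitochondrial medians run from 0.10 in inhibitory neurons to 0.62 in oligodendrocytes and nuclear medians from -0.11 to 0.04, and no gene was called.

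Between the J20 mice the mitochondrial share was lower in J20;GKO than in J20;WT in all 6 types: 0.244% against 0.467% in excitatory neurons, 0.322% against 0.728% in inhibitory neurons, 0.795% against 1.36% in astrocytes, 0.719% against 1.48% in oligodendrocytes, 0.623% against 1.19% in OPCs and 0.935% against 1.65% in microglia. This is a difference between 1 mouse and another, with no replicate check, and its direction is opposite to that of the GKO and WT means. Of members with at least 50 UMIs in the pair, a log2 ratio under -0.3 was found for 46 of 96 in excitatory neurons (20.7% of all genes), 45 of 91 in inhibitory neurons (20.3%), 32 of 60 in astrocytes (27.5%), 54 of 83 in oligodendrocytes (28.1%), 12 of 24 in OPCs (22%) and 23 of 38 in microglia (21.5%).

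The medians of the mitochondrial genes lay below those of the nuclear members in all 6 types. Mitochondrial genes had median log2 ratios of -0.89 in excitatory neurons, -1.15 in inhibitory neurons, -0.77 in astrocytes, -0.97 in oligodendrocytes, -0.95 in OPCs and -0.75 in microglia. Nuclear members had medians of -0.23, -0.19, -0.24, -0.43, 0.00 and -0.20 in that order. In excitatory neurons the J20;WT mouse had 963 CPM of mt-Co3 and the J20;GKO mouse 474 (95% exact Poisson intervals 947 to 979 and 463 to 485), and in the same order 102 and 62.7 CPM of Ndufa4, 100.3 and 60.9 of Ndufc2, and 97.3 and 93.0 of Cox7b. The J20;WT library was the highest of all 8 for the nuclear-encoded share and for the ribosomal protein share in 6 of 6 types, and for the mitochondrial share in 4 of 6, where GKO_3 was higher in oligodendrocytes and microglia. It also stood apart in the barcodes over the mitochondrial limit, the Malat1 share and the file date given above, so genotype, mouse and library cannot be told apart here.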

How the data were processed

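Single-nucleus RNA-seq of hippocampus was done on 8 mice (3 WT, 3 GKO, 1 J20;WT, 1 J20;GKO) with 10x Genomics libraries. The deposited values are raw UMI counts per gene and barcode that the authors made with Cell Ranger 3.0.2 against mm10, and their notes name Seurat 3.0 and R 3.6.2 for later steps. Whether intronic reads were counted is not given in the sources used here. Nuclei with over 5% mitochondrial UMIs, under 200 or over 7500 genes were removed, as in the study. A nucleus was given a type where at least 3 of 8 markers were detected, its relative marker score was at least 0.5 and the second-best score at most 0.65 of the best. No doublet caller was run, and against mixed nuclei the gate had only its limit on the second-best score, 0.65 of the best. Of the nuclei given a type, 135 to 429 per library had a second-best score between 0.5 and 0.65 of the best. Libraries shared at most 21 barcodes (0.456%). No 2 libraries agreed within sampling noise.

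Counts were summed per library and type. Shares of UMIs were compared within libraries by exact sign-flip tests (two-sided) and between 3 GKO and 3 WT mice by exact permutation tests. Genes were tested with edgeR 4.0.16 (quasi-likelihood, TMM, Benjamini-Hochberg), DESeq2 1.42.0 being an alternative, in R 4.3.3, with figures from matplotlib 3.10.9. P-values between GKO and WT measure the spread between mice. Those between types measure how far differences within a library vary over the libraries, which mix genotypes, ages and file dates. The GKO fit was tested on simulated data per type. Of genes given a log2 fold change of 0.5, it recovered from 0% (inhibitory neurons) to 7.46% (excitatory neurons). An absence of calls between GKO and WT therefore says little on differences of that size. The values were 37.3% (inhibitory neurons) to 70.15% (excitatory neurons) at a log2 fold change of 1, and 92.4% to 97.0% at 2. False calls ran from 2 in OPCs to 11 in oligodendrocytes and microglia. Deviations from group means correlated at 0.680, 0.267 and 0.382 in same-numbered WT and GKO pairs over 15087 genes, so a replicate block was run as an alternative. Each such pair shares a file date, and different-numbered pairs of 1 date correlated at 0.292 and 0.455, so number and date cannot be told apart. Other alternatives were size factors, no filter, 1000 genes per nucleus, a stricter gate, other libraries and leaving out each mouse. The members and lists were chosen with earlier results of these data known. Named genes are the 13 mitochondrial members, members with isoforms, up to 5 members or list genes per direction past the threshold, and otherwise the 3 smallest p-values. Nuclei given no type were not analysed.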

Additional observations from a re-analysis of the deposited data

Results flagged for a closer look

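In the nuclear-encoded share, oligodendrocytes minus microglia, WT_3 was the only library of 8 above 0, at 0.00190 percentage points, while the nearest other library was at -0.0141. The gap took 0.595 of the whole range, above Dixon's 95% critical value for 8 values. Such a test picks out about 1 in 20 groups by chance, and 36 sets of values were examined.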

How the results depend on the processing

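OPCs had as few as 49 nuclei in a library, and a stricter gate left GKO_1 with 9. Of 126 alternative values for differences in mitochondrial share between types, 123 kept direction and side of the threshold, as did 103 of 126 for the nuclear-encoded share. CA1 minus CA3 passed the threshold in mitochondrial share with the stricter gate (0.0284) and without WT_1 and GKO_1 (0.0400, an alternative chosen after seeing the data), and turned to -0.00479 when averaged over nuclei. For the nuclear-encoded share it was -0.00193 averaged over nuclei, -0.00493 thinned to 1000 UMIs, -0.000394 without Malat1 and -0.00188 over the 6 WT and GKO libraries. Excitatory neurons minus OPCs turned to 0.00241 averaged over nuclei, and oligodendrocytes minus microglia to 0.0102 without Malat1. Pairs that lost the threshold in nuclear-encoded share were excitatory neurons minus oligodendrocytes (-0.0208 averaged over nuclei, -0.0294 without WT_1 and GKO_1), excitatory neurons minus OPCs (-0.00183 thinned, -0.00902 without Malat1, -0.0139 stricter gate), inhibitory neurons minus microglia (0.0591 thinned, 0.0357 over 6 libraries, 0.0527 stricter gate), oligodendrocytes minus OPCs (0.0237 thinned, 0.0293 over 6 libraries, 0.0207 stricter gate, 0.0178 without WT_1 and GKO_1), inhibitory neurons minus oligodendrocytes (0.0522 over 6 libraries), oligodendrocytes minus microglia (-0.0165 over 6 libraries, -0.0138 without WT_1 and GKO_1), OPCs minus microglia (-0.0316 without WT_1 and GKO_1) and dentate granule minus CA3 neurons (0.0225 thinned). With 6 libraries no p under 0.03125 is possible. The cause of the changes was not tested.

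Leaving out each mouse in turn, GKO minus WT in mitochondrial share ran from -0.0455 (without GKO_3) to 0.0586 in inhibitory neurons and stayed above 0 in the other 5 types, from 0.0337 to 0.0871 in excitatory neurons, 0.155 to 0.332 in astrocytes, 0.201 to 0.716 in oligodendrocytes, 0.0688 to 0.282 in OPCs and 0.225 to 0.717 in microglia. For the nuclear-encoded share it ran from -0.0189 to 0.00698 in excitatory neurons, -0.0735 to -0.00108 in inhibitory neurons, -0.0192 to 0.00237 in astrocytes, -0.0182 to 0.00902 in oligodendrocytes, -0.00343 to 0.0283 in OPCs and -0.0119 to 0.0144 in microglia. It was also -0.0117 in OPCs with the stricter gate, and in microglia -0.00160 averaged over nuclei, -0.000368 with no mitochondrial limit and -0.00149 with at least 1000 genes.

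Members called between types moved by over 1.5 times in inhibitory neurons over 6 libraries (16) and in astrocytes with no filter on low counts (6). Members called between GKO and WT in OPCs were 3 with the replicate block (of 8 genes called, 0.108% of 7408) and 1 with the date term (of 2, 0.027%), and the block called no gene in the other 5 types. With RLE size factors or DESeq2, mt-Co2 and mt-Co3 passed the threshold in inhibitory neurons and Ndufc2 no longer did in microglia. In OPCs against the other types, fold changes near 0 turned below it: without the filter mt-Co1 (-0.0229), mt-Co2 (-0.0203), mt-Atp6 (-0.00665), mt-Co3 (-0.00724) and mt-Cytb (-0.0100, and -0.0116 with the stricter gate), and over 6 libraries mt-Co1 (-0.0244), mt-Co2 (-0.0241), mt-Atp6 (-0.0213) and mt-Co3 (-0.0244).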

Other observations

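Among types too rare to be tested, fibroblasts, endothelial and mural cells had larger pooled mitochondrial shares than each of the 6 main types (at most 1.25%, in microglia). The 95% exact binomial (Clopper-Pearson) intervals cover counting error only. Fibroblasts (176 nuclei) had 1.98% (1.95% to 2.02%), endothelial cells (44 nuclei) 1.82% (1.72% to 1.91%), mural cells (110 nuclei) 1.64% (1.59% to 1.70%), choroid plexus epithelium (123 nuclei) 1.25% (1.22% to 1.27%) and Cajal-Retzius cells (208 nuclei) 0.892% (0.869% to 0.916%). Their nuclear-encoded shares were 0.429%, 0.599%, 0.584%, 0.620% and 0.395% in that order, so that choroid plexus epithelium had the highest and Cajal-Retzius cells lay below astrocytes (0.487%). Across libraries the mitochondrial share of fibroblasts ran from 1.27% to 2.38% and that of Cajal-Retzius cells from 0.476% to 1.46%. That of endothelial cells ran from 0.853% to 2.5% and that of mural cells from 0.738% to 2.3%, with as few as 2 and 6 nuclei in a library. For these last types the pooled order did not hold in every library. In WT_3, mural cells (0.738%) lay below astrocytes (0.762%) and microglia. In J20;WT, endothelial (1.36%) and mural cells (1.58%) lay below microglia (1.65%).

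Choroid plexus epithelium, seen in 5 libraries, also had Atp5g1, a c subunit gene of ATP synthase, at 169 CPM (UMIs per 1000000, 95% exact Poisson interval 143 to 198), against 30.0 CPM in OPCs and 59.4 CPM in inhibitory neurons, the lowest and highest of the 6 main types.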
